A study of Mus musculus with 9 samples.

Results

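The canonical Wnt pathway was followed through 10 of its core genes in mouse liver. They were the receptors Lrp5, Lrp6, Fzd4 and Fzd8, the destruction complex genes Apc, Gsk3b and Axin1, beta-catenin itself (Ctnnb1), and the nuclear partners Tcf7l1 and Tcf7l2. Members were taken by gene symbol from the probe annotation of an Illumina mouse bead array, which found 9 of the 10 genes with 23 probes. RefSeq names placed 4 more probes. For 2 of them, filed under the old symbol Tcf3, the transcript accession belongs to Tcf7l1, and 1 each filed as Catnb and C030016K15Rik belongs by synonym to Ctnnb1 and Lrp6. Together these were 27 of the 45281 probes, which carry 28883 gene names. Counts below are of the 23 probes unless the RefSeq matches are named. The file's Tcf4 is the E protein gene of that name and not Tcf7l2, and was left out.

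The study set the hepatocytes that ring the central vein against the rest of the liver lobule. PV cells came from the perivenous subcompartment that holds glutamine synthetase and NPV cells from zones 1+2 of the acinus, both cut from fixed sections by laser capture microdissection, which lifts chosen cells under the microscope. SC was an undissected scrape of the section. Each group had 3 arrays, numbered 1 to 3. The labels give a single dye, Cy3, and oligo-dT priming, and they give no strain, sex, age or treatment of the mice. They tie no sample to an animal. The p-values therefore speak only of the spread among these 9 samples, part of which may be technical.

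When Wnt ligands bind a Frizzled receptor and its partner Lrp5 or Lrp6, the complex of Apc, Axin and Gsk3b no longer marks beta-catenin for destruction. Beta-catenin then enters the nucleus and works with Tcf factors, which hold target genes silent in its absence. Around the central vein of the liver this pathway is known for maintaining pericentral genes such as Glul. The comparisons below ask whether transcripts of the pathway's own parts are zoned.

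No member probe passed the test between any 2 of the groups. Of 13 measured target genes of the pathway, 1 rose in PV over NPV by limma, where 0.0103% of all tested probes were called. With the label number held as a block 9 rose, where 0.329% of all were called. The median difference over the 13 was 1.27 on the log2 scale. This list was drawn up with earlier results of these data known, and it holds Glul, which names the captured compartment. For Ctnnb1 the first of its probes differed between PV and NPV by 0.02 on the log2 scale. With the block, its 95% interval ran from 0.841-fold to 1.217-fold. The gene's other probes differed by -0.06, -0.49 and, for the one matched by synonym, -0.17, and none passed. For the probe at -0.49 the interval with the block was 0.530-fold to 0.954-fold. Of the other pathway genes, Axin2 and Lgr5, both of them also targets of the pathway, rose in PV with the block and 0 fell. With the block and 1 array left out, the call of Axin2 was kept in 1 of 9 fits and that of Lgr5 in 3 of 9. Levels below are background-corrected, quantile-normalized log2 intensities, and a difference is the mean of the first group minus that of the second.

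For orientation, promoter sequences are shown for Ctnnb1 and Tcf7l2, members whose transcripts did not pass between zones, and for Sp5, a target gene that rose in PV. Each is the 250 bases before the transcription start from RefSeq on mouse build GRCm38.p6, read 5′ to 3′ on the plus strand, with a Tcf motif in capitals. The Ctnnb1 window is chr9:120933150-120933399, that of Tcf7l2 is chr19:55741560-55741809, and that of Sp5 is chr2:70474673-70474922.
Ctnnb1: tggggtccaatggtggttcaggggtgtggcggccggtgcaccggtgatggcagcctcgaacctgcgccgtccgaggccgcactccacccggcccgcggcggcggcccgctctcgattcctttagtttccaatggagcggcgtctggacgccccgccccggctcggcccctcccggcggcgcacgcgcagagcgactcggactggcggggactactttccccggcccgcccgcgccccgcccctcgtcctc
Tcf7l2: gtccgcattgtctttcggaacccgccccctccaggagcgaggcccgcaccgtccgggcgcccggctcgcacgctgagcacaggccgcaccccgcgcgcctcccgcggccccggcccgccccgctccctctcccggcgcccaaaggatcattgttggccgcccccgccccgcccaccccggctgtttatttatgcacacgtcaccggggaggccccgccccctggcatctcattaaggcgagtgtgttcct
Sp5: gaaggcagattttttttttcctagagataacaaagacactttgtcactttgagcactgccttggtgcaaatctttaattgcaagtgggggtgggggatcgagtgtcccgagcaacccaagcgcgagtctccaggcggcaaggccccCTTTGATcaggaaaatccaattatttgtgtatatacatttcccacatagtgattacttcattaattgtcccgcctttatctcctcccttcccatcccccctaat
The motifs searched were CTTTGAA and CTTTGAT on both strands, which differ in the last base only. The Sp5 window holds CTTTGAT, starting 104 bases before the start site, and the other windows shown hold neither motif. A motif was found in 0 of 7 windows of 5 members and in 5 of 12 windows of 10 listed target genes. Over all 32851 windows of that length the share was 7.48%, and 7 windows are too few to set 0 against it. The share of the target genes was not tested against it either, and their list was drawn up with earlier results of these data known. The member windows were those of Ctnnb1, Gsk3b, Tcf7l1, Tcf7l2 and Fzd4. No window was read for the members Apc, Axin1, Lrp5, Lrp6 and Fzd8. Of genes that rose with the block, Sp5, Tnfrsf19 and Slc1a2 had a window with a motif, and Glul, Axin2 and Oat had none. For Lgr5, Tbx3 and Rhbg, which also rose with the block, no window was read. Cyp2e1 and Cyp1a2, which did not pass, had a window with a motif. A match is a description of letters, not a binding site.

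Detection was uneven across the pathway. A probe was counted as detected on an array where its deposited detection p-value was under 0.05, and was tested if detected on at least 3 of the 9 arrays. Of the 23 probes 13 were tested, 56.5% against 42.9% of all probes, and they covered 8 genes. With the RefSeq matches 16 probes of 9 genes were tested. On all 9 arrays 9 of the 23 probes were detected, and on none 8 were. The 10 that were not tested were 3 of Lrp5, 1 of Fzd4, all 4 of Apc, 1 of Axin1 and 1 of Tcf7l2.

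Apc, the scaffold of the destruction complex and a tumour suppressor, was at background. Its first probe was detected on 1 of 3 PV arrays, 0 of 3 NPV arrays and 1 of 3 SC arrays, and its other 3 probes on none. Scanner intensities of the 4 probes lay between 59 and 116, where array medians over all probes were 71.7 to 100.2. No difference between zones could be measured for Apc with these probes. The second probe of Axin1 and that of Tcf7l1 were each detected on 1 SC array only.

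Among the receptors, Lrp5, a co-receptor that binds Wnt ligands with Frizzled, had levels of 6.09, 5.87 and 6.39 in PV, 6.22, 4.79 and 5.90 in NPV, and 6.11, 5.74 and 6.62 in SC (arrays 1, 2 and 3). One array, NPV 2, stood below the other 8, and the probe was not detected there. The PV and NPV groups overlapped, with a difference of 0.48 (SE 0.38; limma adjusted p = 1.00; SE 0.22 with the block). This was the largest positive difference of a tested member between PV and NPV, and by number it was -0.12, 1.07 and 0.49. It rested on NPV 2: without that array the difference was 0.06.

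Lrp6, the second co-receptor, had levels of 5.39, 5.77 and 5.87 in PV, 5.61, 6.03 and 5.86 in NPV, and 6.06, 5.91 and 5.73 in SC. The groups overlapped and the PV to NPV difference was -0.16 (SE 0.19). A second Lrp6 probe, matched by synonym, was detected on 5 arrays, differed by 0.03 (SE 0.16) and did not follow the first across arrays (r = -0.53 over 9 arrays, which share their normalization).

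Fzd4, a Frizzled receptor also known for norrin signalling in vessels, had levels of 5.74, 5.57 and 5.77 in PV, 5.63, 5.71 and 5.42 in NPV, and 5.86, 6.05 and 5.45 in SC. It was detected on all arrays and the PV to NPV difference was 0.10 (SE 0.19). Fzd8, another Frizzled receptor, had 5.80, 5.004 and 5.88 in PV, 5.16, 5.25 and 6.27 in NPV, and 5.44, 5.001 and 6.29 in SC. Its group means lay within 0.02 of one another (PV to NPV difference 0.004, SE 0.42), although single arrays differed by more than 1 log2 unit. It was detected on 2 arrays of each group.

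In the destruction complex, Gsk3b, the kinase that phosphorylates beta-catenin, had levels of 8.58, 8.65 and 8.81 in PV, 8.61, 8.58 and 9.10 in NPV, and 8.83, 8.56 and 8.71 in SC. The groups overlapped and the PV to NPV difference was -0.08 (SE 0.18). Axin1, the scaffold that brings kinase and beta-catenin together, had 8.24, 7.99 and 8.71 in PV, 8.04, 7.9999 and 8.56 in NPV, and 8.20, 8.13 and 8.59 in SC. Its difference was 0.12 (SE 0.25), and with the block its interval ran from 0.902-fold to 1.304-fold. In each group the array numbered 3 was the highest for Axin1.

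Ctnnb1 encodes beta-catenin, which also joins cadherins at cell contacts. Its first probe had levels of 13.09, 13.06 and 12.88 in PV, 13.17, 13.12 and 12.68 in NPV, and 13.24, 13.17 and 12.89 in SC. All 9 values lay within 0.6 log2 units, and scanner intensities ran from 5902 to 12921. The difference was 0.02 between PV and NPV (SE 0.19), -0.09 between PV and SC and -0.11 between NPV and SC. The second probe had 10.89, 10.78 and 11.16 in PV, 11.19, 10.78 and 11.05 in NPV, and 10.74, 10.85 and 11.33 in SC, a PV to NPV difference of -0.06 (SE 0.21).

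The third Ctnnb1 probe, with scanner intensities of 125 to 178, gave another picture. It had 6.54, 5.96 and 6.21 in PV, 6.80, 6.73 and 6.67 in NPV, and 6.63, 6.85 and 6.12 in SC. Every PV array lay below every NPV array, a difference of -0.49 (SE 0.23; unadjusted p = 0.058 by limma; -0.64 to -0.35 with 1 array left out), while SC overlapped both. With the block the unadjusted p was 0.028 and the adjusted p 0.464, so it did not pass. The first 2 probes of the gene did not share this difference. The probe matched by synonym had 6.76, 7.88 and 8.20 in PV, 7.49, 7.52 and 8.35 in NPV, and 7.85, 8.06 and 7.86 in SC, a difference of -0.17 (SE 0.38). Across the 9 arrays, pairs of Ctnnb1 probes correlated between -0.55 and 0.36. Once the mean of each array number was taken out, they correlated between -0.24 and 0.26.

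Of the nuclear partners, Tcf7l1, which acts largely as a repressor of Wnt targets, was read by a probe matched by accession. It had levels of 8.04, 8.16 and 7.45 in PV, 8.34, 8.211 and 8.36 in NPV, and 8.207, 7.25 and 7.96 in SC. The NPV arrays all lay above those of PV and of SC, in the case of SC by a margin of only the third decimal. The differences were -0.42 between PV and NPV (SE 0.28), 0.50 between NPV and SC (SE 0.28) and 0.08 between PV and SC, and none passed (adjusted p = 1.00 by limma in each comparison; 0.667, 0.772 and 0.976 with the block). The first was -0.21 without PV 3 and the second 0.22 without SC 2.

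Tcf7l2, the Tcf factor usually described as the main partner of beta-catenin in hepatocytes, had 4 tested probes. The first had 8.66, 8.12 and 9.18 in PV, 8.89, 8.13 and 9.58 in NPV, and 8.57, 8.11 and 9.68 in SC. The second had 7.31, 7.30 and 8.51 in PV, 7.94, 7.10 and 8.77 in NPV, and 7.61, 7.25 and 8.67 in SC. In every group the array numbered 3 was the highest on both probes, and the groups overlapped throughout. The PV to NPV differences were -0.22 (SE 0.49) and -0.23 (SE 0.53), and with the block the SE values were 0.15 and 0.16. Probes 3 and 4, near background and not detected on every array, differed by 0.09 (SE 0.48) and -0.01 (SE 0.28).

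**Figure D1:**
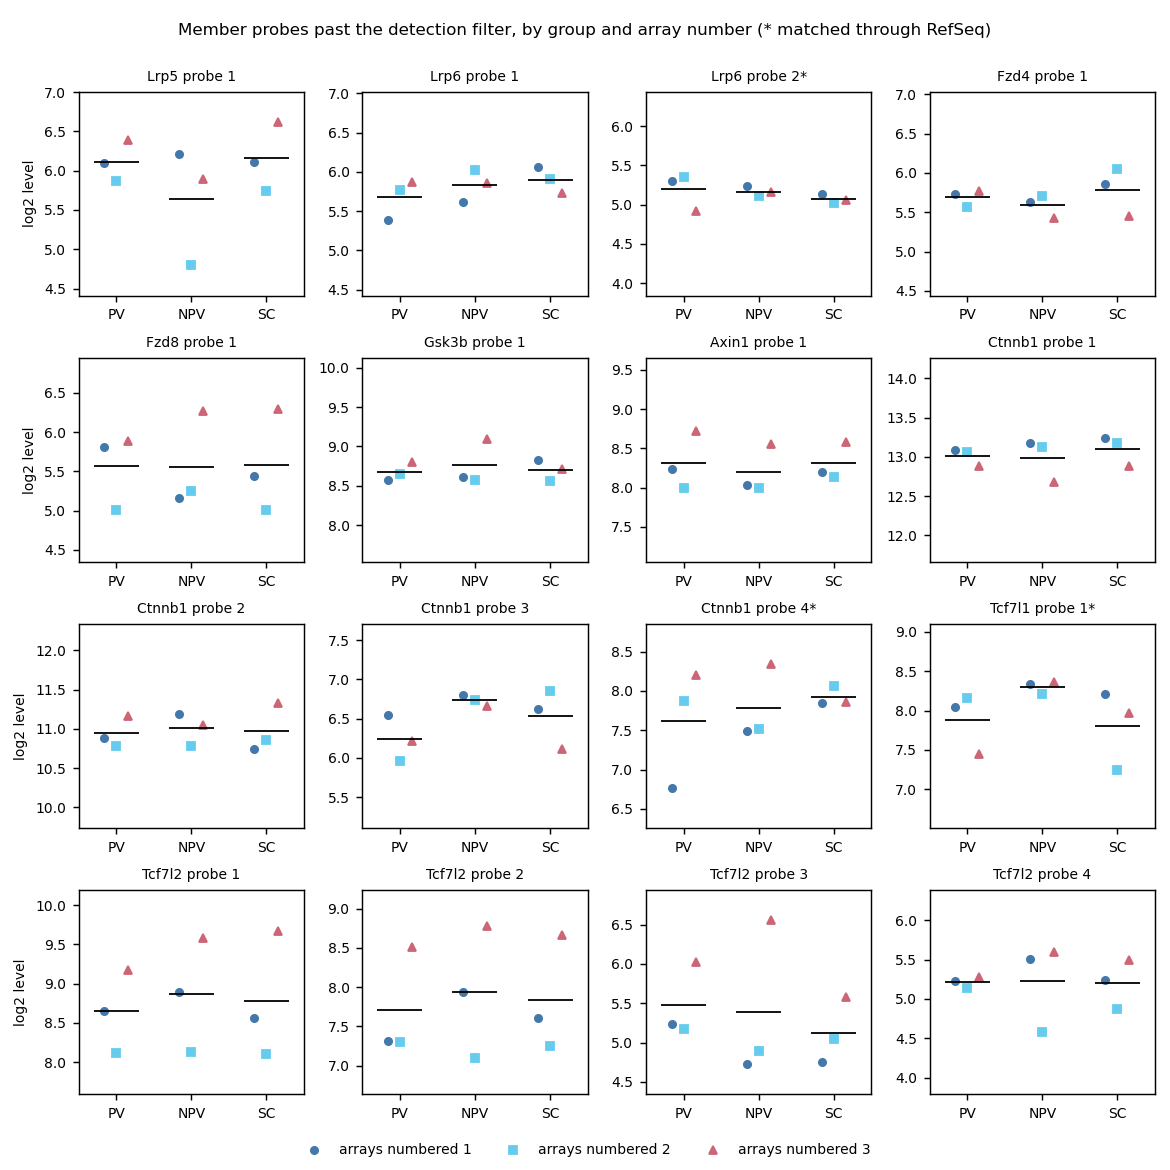
Log2 level (vertical axis, each panel spanning the same range of 2.6 units) of the 16 member probes tested, by group (PV, NPV, SC); symbols mark the array number, lines the group means, and asterisks probes matched through RefSeq. The PV and NPV values overlap except for Ctnnb1 probe 3 and Tcf7l1 probe 1. The arrays numbered 3 are highest in each group for Tcf7l2 probes 1 to 4, Fzd8 and Axin1.

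Between PV and NPV 0 of 13 member probes were called by limma with Benjamini-Hochberg adjustment over the 19425 probes tested, at a threshold of 0.05, where 2 probes (0.0103%) were called in all. At an unadjusted p under 0.05 there were 0 of the 13, against 2.10% of all probes. With the block 0 of 13 were called, where 64 probes (0.329%) were, and 1 of 13 had an unadjusted p under 0.05, against 9.15% of all. The groups did not overlap for 1 of the 13, against 5.79% of all probes. The members' median difference was -0.01 and their median absolute difference 0.10, beside -0.005 and 0.13 over all probes. These shares are near the background and are no result about the members. Between PV and SC 0 of 13 were called, where 0% of all probes were without the block and 0.0824% with it, and 0 of 13 had groups that did not overlap (3.68% of all). Between NPV and SC 0 of 13 were called, where 0% of all probes were with or without the block, and 0 of 13 had groups that did not overlap (4.25% of all). At an unadjusted p under 0.05 there were 0 of 13 without the block, against 1.12% of all probes between PV and SC and 1.59% between NPV and SC. With the block there were 0 of 13 between PV and SC (6.19% of all) and 1 of 13 between NPV and SC (7.69%, against 6.74% of all), a share near the background. The 1 was Lrp5 (-0.52; adjusted p = 0.723), whose difference was -0.10 without NPV 2. Each pair of these comparisons has a group in common, so they are not separate tests.

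A p that misses the threshold does not show equal levels, so the intervals of the differences give the limits. With the block, the 95% intervals of all 13 member probes between PV and NPV lay inside 2-fold in both directions, as did those of the 3 RefSeq matches and of 96.8% of all probes. Without it 8 of 13 did, against 78.2% of all probes. The widest bound with the block was 0.97 on the log2 scale. Between PV and SC 13 of 13 intervals lay inside 2-fold with the block, against 97.5% of all probes. Between NPV and SC 12 of 13 did with the block, or 14 of 16 with the RefSeq matches, against 97.7% of all probes. The exceptions were Lrp5 (lower bound -1.02) and Tcf7l1 (upper bound 1.05). For the probes near background, such as those of Lrp5, Lrp6, Fzd4 and Fzd8, the offset of 16 added to every intensity draws a fold towards 1, so these limits hold for the measured values only.

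**Figure D2:**
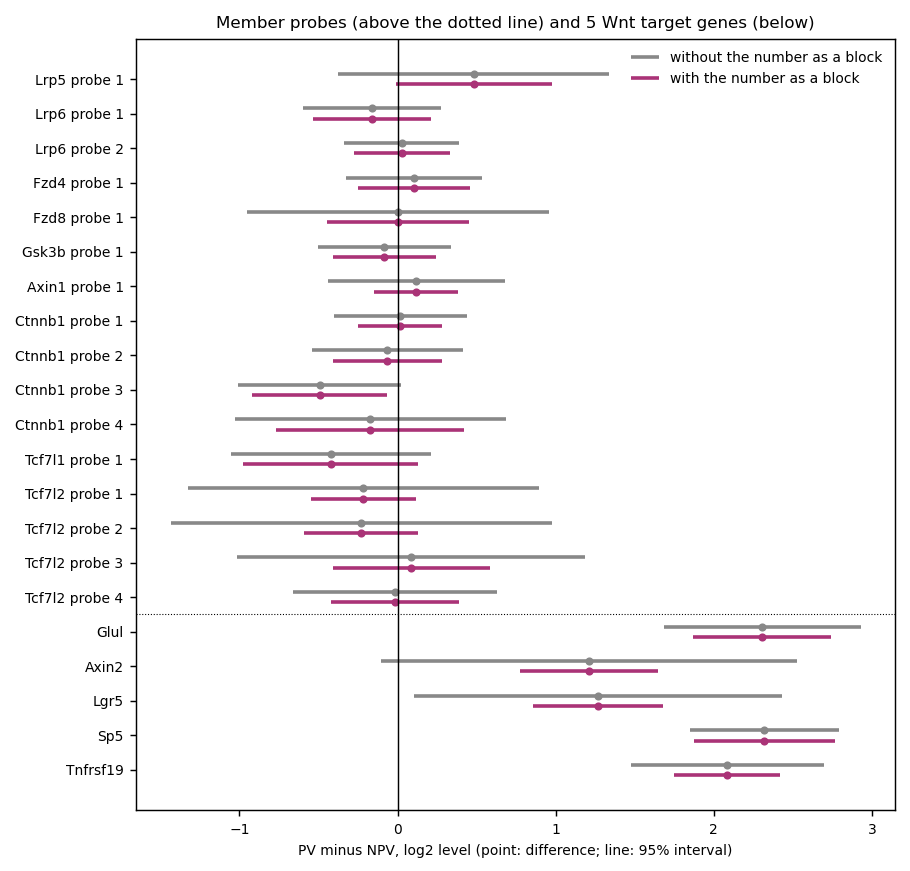
Difference in log2 level, PV minus NPV (horizontal axis), for the 16 member probes and 5 Wnt target genes, with 95% intervals without (grey) and with (purple) the array number as a block. The intervals of the member probes reach 0 except that of Ctnnb1 probe 3 with the block, and the differences of the 5 target genes lie at 1.21 or above.

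Target genes of the pathway differed between the zones on the same arrays. Glul, the gene that names the captured compartment and so checks the labels, had levels of 13.73, 12.81 and 12.88 in PV, 11.09, 10.94 and 10.48 in NPV, and 11.58, 11.70 and 11.44 in SC. The PV arrays were all higher than the other 6 (difference 2.31, SE 0.27; limma adjusted p = 0.0856, 0.00176 with the block). Sp5, a zinc finger transcription factor that Wnt signals induce, had 8.96, 8.78 and 8.98 in PV, 6.46, 6.97 and 6.33 in NPV, and 7.23, 7.05 and 7.50 in SC, and it rose 4.99-fold in PV over NPV (limma adjusted p = 0.0310, 0.00178 with the block). Without the block, the Sp5 call was lost when PV 1, PV 2, NPV 1, NPV 3 or any SC array was left out (adjusted p of 0.0546 to 0.237), and with the block it was kept without any one array. Of 13 measured genes among 15 listed Wnt targets of pericentral hepatocytes, 1 rose between PV and NPV and 0 fell by limma, and 9 rose with the block. Over all tested probes 0.0103% were called by limma and 0.329% with the block. The list's median difference was 1.27, beside -0.005 over all probes, and the list was drawn up with earlier results of these data known. Besides Glul and Sp5 those that rose with the block were Axin2, Lgr5, Tnfrsf19 (a receptor related to those for tumour necrosis factor), Tbx3 (a transcription factor), Oat (ornithine aminotransferase), Rhbg (an ammonium transporter) and Slc1a2 (a glutamate transporter). With the block and 1 array left out, Tbx3 was called in 5 of 9 fits (lost without PV 1, PV 2, NPV 1 or NPV 3; adjusted p up to 0.112) and Oat in 6 of 9 (lost without PV 1, NPV 1 or NPV 3; up to 0.0967). Another probe of Tbx3 differed by 0.70 and did not pass (adjusted p = 0.389 with the block). Glul, Tnfrsf19, Rhbg and Slc1a2 were called in all 9. Cyp1a2, which oxidises aromatic amines, differed by 0.63 and Notum, described below, by 0.61, and neither passed. The probe of Cyp2e1, which oxidises ethanol, read 82.4% to 100% of the brightest probe on each array, so its difference of -0.09 cannot show whether that gene is zoned.

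Axin2 and Axin1 encode related scaffolds of the destruction complex, and Axin2 is also a target of the pathway. Axin2 had levels of 6.80, 7.10 and 8.03 in PV, 5.74, 5.51 and 7.05 in NPV, and 6.04, 5.39 and 7.35 in SC. The arrays numbered 3 were the highest in each group. The pooled PV and NPV values overlapped, and within each number PV was higher by 1.06, 1.59 and 0.98. Axin2 was 2.31-fold higher in PV over NPV (difference 1.21; limma adjusted p = 1.00 without the block) and rose with the block (SE 0.19; adjusted p = 0.0494). That call, at the edge of the threshold, was kept in only 1 of the 9 fits that each left out 1 array with the block, the one without SC 2, with adjusted p of 0.0314 to 0.284 over the 9. Within the 3 numbers, the PV to NPV difference of Axin2 was larger than that of Axin1 by 0.86, 1.60 and 0.82 (mean 1.09 ± 0.44, SD, n = 3 numbers). This is a description, since the pair was chosen after its values were seen and an exact paired test of 3 numbers cannot give a p below 0.25.

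Lgr5, a receptor for R-spondins that strengthens the Wnt signal, had levels of 6.61, 6.25 and 7.25 in PV, 5.50, 4.79 and 6.02 in NPV, and 5.68, 4.89 and 6.84 in SC. All PV arrays lay above all NPV arrays. Lgr5 was 2.41-fold higher in PV over NPV (difference 1.27, SE 0.51; limma adjusted p = 1.00) and rose with the block (SE 0.18; adjusted p = 0.0287). That call was kept in 3 of the 9 fits that left out 1 array with the block and lost without PV 1, PV 2, any NPV array or SC 1 (adjusted p of 0.0134 to 0.196 over the 9). It was detected on 2 of 3 NPV arrays, so the fold rests in part on a level near background.

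The wider pathway was read from lists of 129 other genes, each by its brightest probe, and 72 were measured. For 51 the brightest probe was not past the detection filter, and 6 had no probe under the listed name. By limma 0 of the 72 rose and 0 fell in each of the 3 comparisons, with 6, 1 and 3 at an unadjusted p under 0.05 for PV against NPV, PV against SC and NPV against SC. With the block 2 rose between PV and NPV, the Axin2 and Lgr5 above, and 0 fell, and 0 were called in the other comparisons. The median difference between PV and NPV was 0.03 over the 72.

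Of 16 other receptors and co-receptors 8 were measured, and only Lgr5 passed, with the block. Fzd1, Fzd6 and Fzd10, further Frizzled receptors, differed between PV and NPV by 0.41, 0.15 (another probe 0.32) and -0.32, with 1 of 3 PV arrays detecting Fzd10. Both measured genes of the 4 for receptor turnover, Kremen1 (0.16) and Kremen2 (-0.08), which bind Dickkopf proteins, stayed short of the threshold.

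Of 24 Wnt ligands and R-spondins 5 were measured. Rspo3, an R-spondin of central vein endothelium, had levels of 6.99, 6.39 and 6.14 in PV, 5.92, 4.90 and 5.20 in NPV, and 6.42, 6.53 and 6.45 in SC. Its PV arrays lay above its NPV arrays, a difference of 1.16 (SE 0.30; adjusted p = 0.0925 with the block), and SC overlapped PV. Wnt2, a ligand made by liver endothelium, had 9.62, 9.07 and 6.60 in PV, 8.19, 8.55 and 5.68 in NPV, and 8.67, 8.85 and 6.33 in SC. The arrays numbered 3 were the lowest for Wnt2, and PV was higher within each number (difference 0.96; adjusted p = 0.110 with the block). Wnt5b, a ligand of the beta-catenin-independent branch, differed by -0.16.

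Markers of other cell types are given beside these ligands. Of 7 central vein endothelium markers, a list that holds Rspo3 and Wnt2 themselves, 6 were measured, all 6 were higher in PV than in NPV (median 1.28), and Cdh13 (a cadherin), Lhx6 (a transcription factor) and Vwf (von Willebrand factor) rose with the block. The brightest probe of Wnt9b, a ligand that defines this endothelium, was not past the detection filter. The summed linear level of the list ran from 452 to 2883 over PV arrays, 179 to 867 over NPV arrays and 342 to 1290 over SC arrays. The summed level of 5 hepatocyte markers ran from 174699 to 191449 in PV, 182717 to 196367 in NPV and 186225 to 202371 in SC. That sum is mostly Apoa1, Ttr and Serpina1a, whose probes read at 55.7% or more of the brightest probe on each array, so it can hide a change. Of the other hepatocyte markers, Hnf4a differed by -0.18 between PV and NPV and Alb by -0.52, and neither passed. The Alb probe read at only 0.41% to 0.66% of the brightest probe on each array, so its difference is not taken as one of albumin transcript.

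Both measured smooth muscle markers of 4 were higher in PV than in NPV (Acta2, an actin, by 1.02 and Myh11, a myosin, by 0.63). Their summed level ran from 246 to 11175 in PV, 169 to 3219 in NPV and 286 to 1284 in SC. On the arrays numbered 3 Acta2 was lower in PV (7.98) than in NPV (8.55), and its other probes differed by 0.22 and 1.08. Myh11 was at 8.92 in PV 1 and 7.35 in NPV 1, and at 4.44 to 5.04 on the other PV and NPV arrays. Of 9 stellate cell and fibroblast markers 8 were higher (median 0.35), with Col3a1, a collagen, at 1.13, and the sum ran from 11915 to 18835 in PV, 11704 to 12405 in NPV and 12461 to 14899 in SC. Of 8 sinusoidal and general endothelium markers 7 were measured and 6 were higher (median 0.07; sums of 7467 to 8897 in PV, 6540 to 9765 in NPV and 8201 to 10658 in SC). Of 7 Kupffer cell and macrophage markers 6 were measured and 4 were higher (median 0.07; sums of 3362 to 4869 in PV, 1836 to 5692 in NPV and 2165 to 5670 in SC). Both measured cholangiocyte markers of 6 had negative differences, Sox9, a transcription factor, of -0.74 and Spp1, osteopontin, of -0.02 (sums of 879 to 2774 in PV, 1627 to 2877 in NPV and 1833 to 2839 in SC). In these 5 lists 0 markers passed with or without the block. The part of these cells in the PV values of Rspo3, Wnt2, Axin2 or Lgr5 was not tested. In such pooled material, fewer cells of a type and less RNA per cell cannot be told apart.

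Genes of Wnt secretion, 3 of 4 measured, did not pass. Wls, which carries Wnt proteins to the surface, differed by 0.37 (2 other probes 0.67 and 0.73; adjusted p = 0.320 and 0.144 with the block), Porcn, which attaches their lipid, by 0.12, and Vps35, which recycles Wls, by -0.04. Of 14 secreted inhibitors 5 were measured and 0 passed. Dkk3, a Dickkopf family protein, had 8.14, 7.24 and 6.69 in PV, 6.56, 6.35 and 6.36 in NPV, and 6.41, 6.80 and 7.11 in SC, with every PV array above every NPV array (0.93, SE 0.34; adjusted p = 0.402 with the block; another probe 0.49). Notum, which removes the lipid from Wnt proteins and is on the target list, differed by 0.61 (SE 0.25; adjusted p = 0.191 with the block; other probes 0.44 and 0.51) and its groups did not overlap either. Sfrp5, a Frizzled-related protein that binds Wnt ligands, differed by 0.35 and was detected on 0 of 3 NPV arrays.

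Among 12 measured of 18 cytoplasmic transducers, Nkd1, a feedback inhibitor that is also on the target list, had 7.10, 6.22 and 7.02 in PV, 5.34, 5.74 and 5.47 in NPV, and 5.73, 4.67 and 6.06 in SC. All its PV arrays lay above all its NPV and SC arrays, and the PV to NPV difference was 1.27 (SE 0.37; adjusted p = 0.194 with the block). Csnk1d, a casein kinase, differed by -0.15 (4 other probes -0.28 to 0.45) and Gpc3, a glypican, by 0.48 (another probe 0.24), with changes by number of 1.58, 1.72 and -1.86. Among 12 measured of 18 other genes of the destruction complex and protein turnover, only Axin2 passed, with the block. Siah1a, a ubiquitin ligase, differed by 0.44, Rbx1, a part of cullin ligases, by 0.17, and Amer2, which binds Apc, by -0.58 (adjusted p = 0.253 with the block).

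Of 26 other nuclear effectors 21 were measured and 0 passed, with a median difference of -0.004. Tcf7, the Tcf factor called TCF1, had 6.24, 5.74 and 5.81 in PV, 5.12, 5.09 and 5.61 in NPV, and 5.02, 5.22 and 5.97 in SC. Its PV arrays lay above its NPV arrays (0.66, SE 0.28; adjusted p = 0.393 with the block; another probe 0.96), of which 1 of 3 detected it. Ctnnbip1, which blocks the contact of beta-catenin with Tcf factors, was lower in PV within each number (-0.55; adjusted p = 0.260 with the block), and Hdac2, a histone deacetylase, differed by 0.25 (another probe -0.09). Of the 4 measured of 5 cadherin-side partners of beta-catenin 0 passed. Cdh1, E-cadherin, differed by -0.57 (adjusted p = 0.264 with the block), with another probe at -0.006, Ctnnd1, p120 catenin, by -0.17, and Cdh2, N-cadherin, by 0.16.

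**Figure D3:**
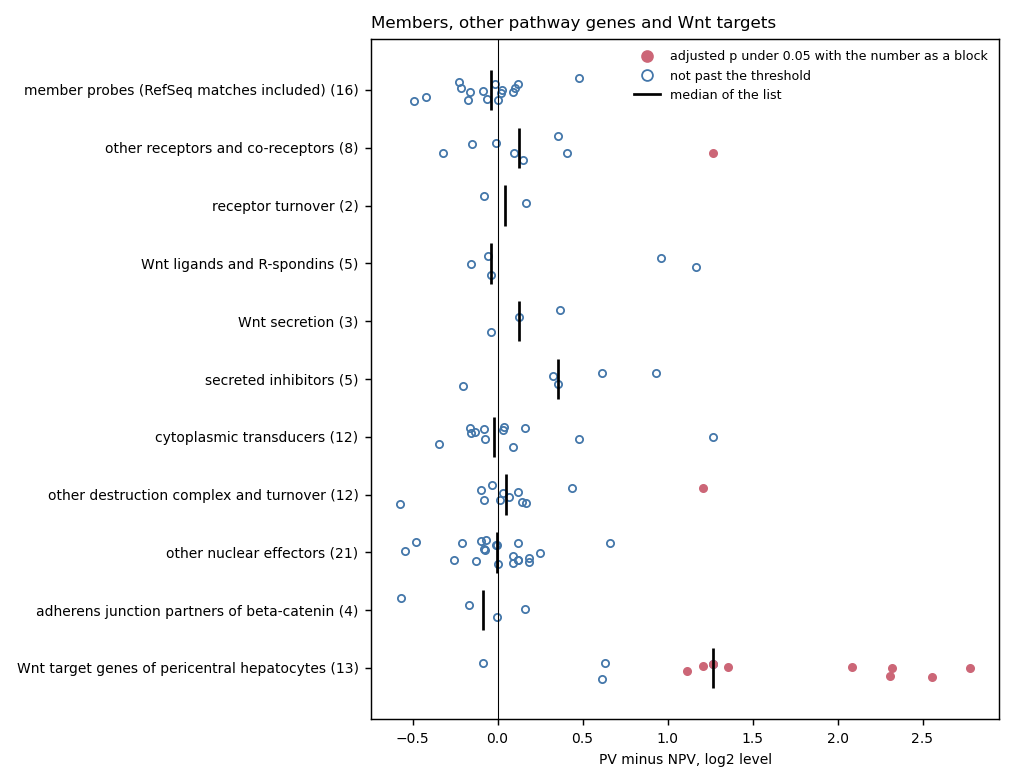
Difference in log2 level, PV minus NPV (horizontal axis), for member probes and for measured genes of 10 lists, with the number of points in parentheses and a vertical bar at each median; genes on more than 1 list appear in each. Filled points passed with the array number as a block, namely Lgr5, Axin2 and 9 of the 13 target genes (Lgr5 and Axin2 among them), and the member probes centre on a median of -0.04.

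Like most probes on the array, most member probes differed more by array number than by zone. The span of the 3 number means was larger than the span of the 3 group means for 11 of 13 member probes (84.6%, medians 0.58 and 0.20). Over all probes the share was 81.8% (medians 0.45 and 0.20), so that of the members is near the background. By a limma F test of the number, added after the data were seen, 6 of 13 were called, against 42.0% of all probes, so the members' share is near the background. The 6 were the first 3 probes of Tcf7l2, Fzd8, Axin1 and Lrp5. Over the whole array the 3 arrays numbered 3 stood apart. Across probes, which are not independent replicates, the correlation of an array numbered 3 with one numbered 1 or 2 was 0.939 to 0.955, against 0.980 to 0.991 among numbers 1 and 2.

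Tcf7l2 was the member whose level differed most by number. On its first probe the arrays numbered 3 were 1.06 higher than the others (95% interval 0.78 to 1.35; F test adjusted p = 0.000412), on the second 1.23 higher (0.92 to 1.55; 0.000422) and on the third 1.08 higher (0.65 to 1.52; 0.00561). On each of these 3 probes all 3 arrays numbered 3 lay above all 6 others. Axin1 was 0.52 higher (F test adjusted p = 0.00895) and Fzd8 0.87 higher (0.00698) on the arrays numbered 3, again with no overlap. The first Ctnnb1 probe was 0.33 lower on the arrays numbered 3 (95% interval of the difference -0.56 to -0.09), also with no overlap. Its F test over all numbers did not pass (adjusted p = 0.0686). The first 2 Tcf7l2 probes followed each other closely over the 9 arrays (r = 0.96), and less so once each number's mean was taken out (r = 0.59). The sources used here do not say what the numbers stand for.

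**Figure D4:**
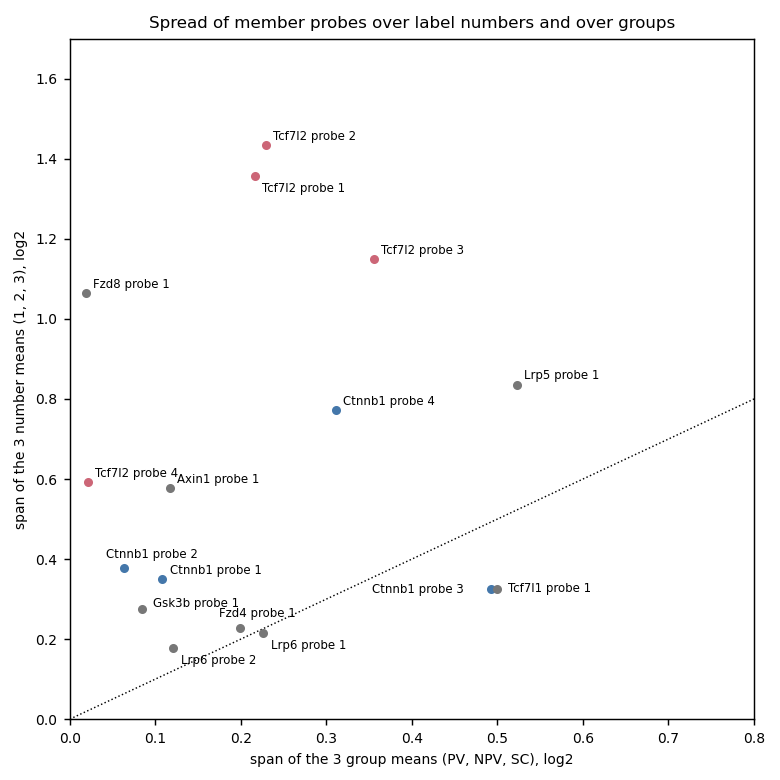
Span of the 3 array-number means (vertical axis) against the span of the 3 group means (horizontal axis), both in log2 units, for the 16 member probes tested, with Tcf7l2 in red, Ctnnb1 in blue and a dotted line of equality. Points above the line, 13 of 16 (81.25%, against 81.8% of all probes), varied more with the array number than with the zone. Ctnnb1 probe 3, Tcf7l1 probe 1 and Lrp6 probe 1 lie below it.

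Levels of members were also set against those of all other genes within numbers. For each member detected on all 9 arrays, the Pearson correlation over the 9 arrays, after each number's mean was subtracted, was taken with 13530 genes, and the closest 2 are given as a description of a search over many genes on few arrays. The closest to Ctnnb1 were D10Wsu102e (r = 0.967) and Cmss1 (0.964). Those to Tcf7l2 were Pik3ap1 (0.979) and Mup5 (0.976), and those to Tcf7l1 were Gm8172 (0.984) and Eno1 (0.984). Axin1 was closest to Plxdc1 (0.983) and Dap3 (0.982), and Gsk3b to 2010312A17Rik (0.976) and Sfi1 (0.959). For Lrp6 they were Tbl1x (0.981) and LOC380623 (0.979), and for Fzd4 Hibadh (0.998) and Vav1 (0.972). No member was among the closest genes of another member.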

How the data were processed

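Per the labels' protocols, total RNA was extracted with Tri-reagent and converted to cDNA. The submitters' processing notes name BeadStudio 3. The deposited scanner table holds a scanner intensity with its detection p-value per probe and array, per the file headers, without normalization between arrays (medians 71.7 to 100.2). Between 16819 (37.1%) and 18721 (41.3%) probes were detected per array. The deposited table of the authors' processed intensity values, on a common scale, served as an alternative. The sources used here do not describe its making.

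The scanner intensities were background-corrected, quantile-normalized and log2-transformed by neqc of limma 3.58.1 (R 4.3.3), its negative controls being estimated from the detection p-values, and an offset of 16. Probes detected at p under 0.05 on 3 or more arrays (19425) entered one limma model of 3 group means, 2-sided, with Benjamini-Hochberg adjustment over all of them. Intervals are limma's. The procedure was tested on simulated data.

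Label numbers paired the samples: deviations from group means correlated at 0.569 to 0.874 for the 9 same-numbered pairs and at -0.742 to 0.396 for the other 18. The number was therefore also fitted as a block.

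Members and lists were chosen with earlier results of these data known. Every member was named. Other pathway genes were named if called, with up to 3 more per list by the smallest p between PV and NPV, each by its brightest probe. Probe sequences were not used here.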

Additional observations from a re-analysis of the deposited data

How the results depend on the processing

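No member probe was called between any 2 groups under any of 30 settings, 19 planned and 11 chosen after seeing the data. The settings were the replicate block, no background correction, another offset, scaling or detection filter, and the authors' table. Further settings were 1 probe per symbol, leaving out each array, and leaving out the arrays numbered 3. The lowest adjusted p was 0.0935, for Lrp5 between PV and NPV with median scaling and the block. Of the 48 member differences (16 probes, 3 comparisons) 37 changed sign under at least 1 setting, and of 1419 recomputed values 28 moved by more than the replicate SD. Median scaling moved the median PV to NPV difference of all probes by 0.28, and changes under it are relative to that shift.

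Counts over all probes depended on the setting. Between PV and NPV 2 probes were called. The count was 5 with the authors' table or no background correction, 11 with median scaling, 30 without the arrays numbered 3 and 0 to 6 with 1 array left out. With the block it was 64, and 129 with the authors' table, 440 with median scaling and 21 to 73 with 1 array left out. Between PV and SC it was 0 without the block in every setting, and 16 with the block, 73 with median scaling and 0 to 35 with 1 array left out. The block changed no member's call. Low signal limited Apc, Lrp5, Fzd8 and the dim probes of Tcf7l2, whose levels lay near background.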
